A study of Rattus norvegicus with 34 samples.

Results

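Oxidative phosphorylation is the set of reactions by which mitochondria make ATP. Complex I oxidises NADH and complex II oxidises succinate, complex III and the small carrier cytochrome c hand the electrons on, complex IV gives them to oxygen, and complex V (ATP synthase) uses the resulting proton gradient to make ATP. Neurons draw most of their ATP from this pathway. Nearly all of its subunits are encoded in the nucleus and made in the cytosol. A few complex IV subunits exist as a form used in most tissues and another form used mainly in heart and skeletal muscle.

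The genes described here are those whose current symbol begins with Nduf (complex I and its assembly factors), Uqcr (complex III), Atp5 (complex V) or Cox4 to Cox8 (complex IV), with Sdha to Sdhd (complex II), Cyc1 and Cycs. Of 22226 probes on the array, 83 met this rule, 1 for each of 83 genes among 21862 tested features. They are 6 core and 29 accessory subunits of complex I, 7 complex I assembly factors, 4 subunits of complex II and 6 of complex III, Cycs, 7 ubiquitous and 6 tissue-restricted or related genes of complex IV, and 17 genes of complex V. The platform annotation named 72 of them and the deposited probe description 11. The symbols of 11 mark them as pseudogenes or near copies of a subunit gene (for example Cox6c-ps1 and Atp5mc2l2), whose probes may share sequence with the parent gene, so their values are uncertain. No probe was found by the rule for Cox4i2, Cox7a1, Cox7a2, Ndufa4 or Ndufa4l2, which are not analysed here.

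RNA came from rat cortical neurons grown for 21 days after isolation from embryos, which the growth protocol describes as Hooded Wistar on embryonic day 17, while another label gives the strain as Wistar and an earlier gestation day. Bundles of axons were then cut with a knife or stretched by oxygen puffs. Which procedure counts as mild and which as severe is not given in the labels. The 34 arrays were labelled as 6 controls, 3 arrays each at 0, 8, 15, 24 and 48 h after mild injury, 1 array at 0 h and 3 each at 8, 15, 24 and 48 h after severe injury. All groups share the 21 days in culture. At least 12 wells were pooled for a time point and 3 cultures were used, but replicate numbers are not tied to a culture, so the p-values rest on array-to-array spread alone, which may be partly technical. In RNA from whole wells, fewer cells of a type and less RNA per cell cannot be told apart.

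Each deposited value is a linear ratio, shown here as log2. For controls and mild injury up to 24 h the ratio is to the mean of control 1 to 3, and in the mild 48 h and all severe arrays to the mean of the 3 arrays labelled mild 48 h. A log2 difference between 2 arrays of the same set is free of this divisor, but values cannot be compared across the sets. Ratios hold no signal level, and the separately deposited array signals were not used for levels. Neither detection nor the strength of cell type markers was therefore assessed. The deposited table of array signals places 18 arrays in another order than the labels do. That order would turn mild 48 h into control 4 to 6, control 4 to 6 into mild 0 h, and each earlier mild time into the next (0 into 8, 8 into 15, 15 into 24 and 24 into 48 h). The severe injury would then be set against controls. Groups are named as labelled throughout, and every direction below is subject to this doubt.

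On most arrays of the controls and of mild injury up to 24 h the 83 genes moved as a body. Among controls and mild injury up to 24 h, the median of the 83 log2 ratios ranged from -0.19 in control 2 to 0.43 in mild 0 h replicate 2. In that lowest array 75 of 83 genes lay below 0, and in the highest 74 lay above it. The proteasome (41 genes, 1 of which, Psmc3ip, is no subunit although its symbol fits) and the mitochondrial ribosome (63 genes) took nearly the same position on each array. Their medians were never more than 0.09 and 0.04 away from that of the 83 genes across these 18 arrays. The cytosolic ribosome (142 genes, some with pseudogene symbols) departed from it by up to 0.31. Several severe arrays had no common direction, with 41 genes above and 42 below 0 in both severe 24 h replicate 2 and severe 15 h replicate 2. Others leaned to 1 side, such as severe 48 h replicate 2 with 76 genes below 0 and replicate 3 with 67 above.

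**Figure D1:**
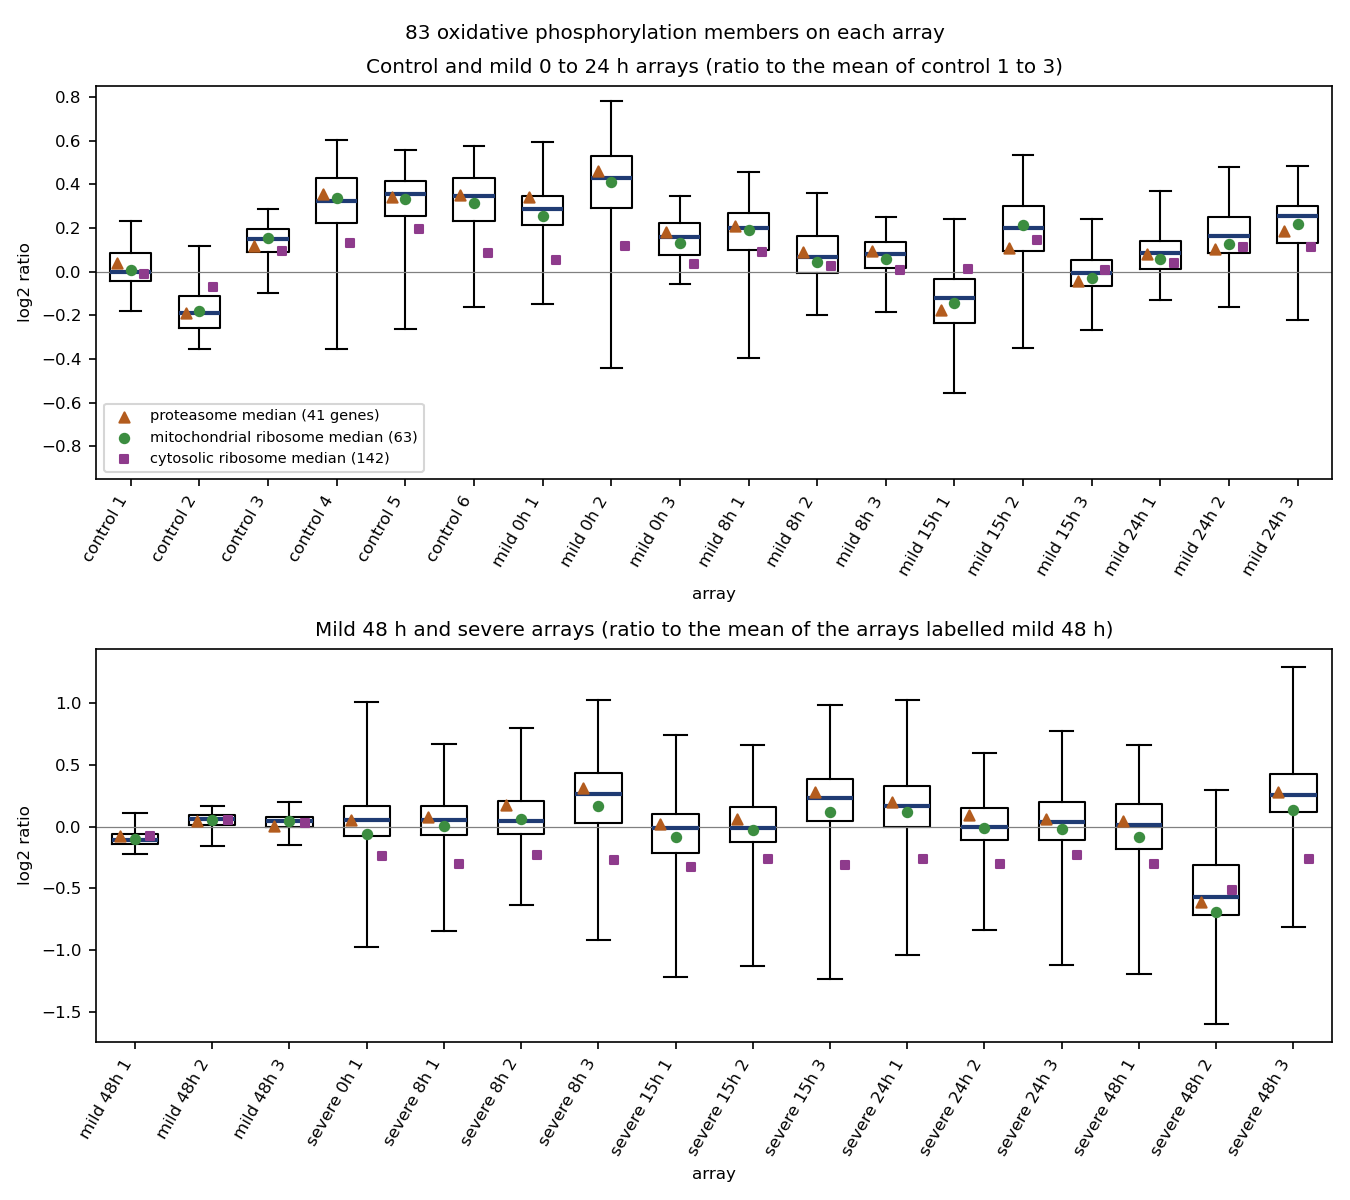
Log2 ratio (vertical axis) of the 83 oxidative phosphorylation genes on each of 34 arrays (horizontal axis), in the 2 sets with different divisors. Boxes span the quartiles with the median as a line, whiskers run from the lowest to the highest gene, and symbols give the medians of 3 other gene lists. The boxes of control 4 to 6 sit near 0.32 to 0.35, and that of severe 48 h replicate 2 near -0.57.

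The mild injury was compared with all 6 controls at each time to ask whether respiratory chain transcripts responded to it. The per-array medians of the 83 genes were -0.00, -0.19, 0.15, 0.32, 0.35 and 0.35 in controls 1 to 6. They were 0.29, 0.43 and 0.16 at 0 h, 0.20, 0.07 and 0.08 at 8 h, -0.12, 0.20 and -0.01 at 15 h, and 0.09, 0.16 and 0.25 at 24 h after mild injury. Every mild group lay within, or overlapped, the spread of the 6 controls. No gene of the 83 differed from control at any of the 4 times (limma, Benjamini-Hochberg adjusted p under 0.05 over all features), and the share of all features called was likewise 0% at each. At an unadjusted p under 0.05 the count was 0, 0, 10 and 0 of the 83 at 0, 8, 15 and 24 h, and 756, 871, 2042 and 1005 of all features.

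The median difference from control over the 83 genes was 0.13 at 0 h, -0.05 at 8 h, -0.15 at 15 h and 0.01 at 24 h. Over all features it was 0.02, -0.00, -0.01 and 0.00. In this comparison with all 6 controls, the 95% intervals of all 83 genes lay within 1 log2 unit of 0 at each time. Within the 2 chips that held both groups, the median was 0.41 and 0.06 at 0 h, 0.07 and -0.02 at 8 h, 0.18 and -0.09 at 15 h, and 0.14 and 0.13 at 24 h (1 array against 1 and 1 against 3). The lowest interval bound, that of Cycs at 15 h, was -0.75.

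At 15 h, 75 of the 83 genes lay below the control mean, and the 10 with an unadjusted p under 0.05 were Cyc1, Cycs and otherwise complex I genes. Ndufaf4, a complex I assembly factor, was lower by 0.34 ± 0.11 (SE) and Ndufa7, an accessory subunit, by 0.31 ± 0.11 (limma adjusted p = 0.432 for both). Ndufs1, the large iron-sulphur core subunit, differed by -0.34 ± 0.14 (adjusted p = 0.487), and Cycs, cytochrome c itself, by -0.40 ± 0.17 (adjusted p = 0.488). Cycs read -0.53, 0.16 and -0.14 in the 3 mild 15 h arrays, against -0.35 to 0.52 in controls. Its groups overlapped, as did those of all 83 genes at this time.

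At 24 h after mild injury, 4 genes of complexes II, IV and V gave these values. Sdha, the succinate-oxidising flavoprotein, differed by 0.09 ± 0.09. Cox4i1, a ubiquitous complex IV subunit, differed by 0.05 ± 0.10, and Atp5f1a and Atp5f1b, the alpha and beta subunits of the ATP synthase head, by -0.01 ± 0.11 and 0.03 ± 0.14. None of these differences passed limma's test.

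The result at 0 and 15 h depended on which controls served as the reference. Against control 1 to 3 alone, 12 of the 83 genes were higher at 0 h, with 4.78% of all features called. Against control 4 to 6 alone, 35 were lower at 15 h, with 10.6% of all features called. Without control 2, 2 genes were lower at 15 h (1.82% of all features).

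The arrays labelled control differed among themselves. Control 4 to 6 were set against control 1 to 3 because their labels are among the doubtful ones. In control 4 to 6, 43 of the 83 genes were higher and 0 lower (limma, adjusted p under 0.05), a share of 51.8% where 11.8% of all features were called (11.5% higher). The median difference was 0.37, against 0.04 over all features. For 64 of the 83 genes all 3 arrays of control 4 to 6 lay above all of control 1 to 3, which held for 24.5% of all features.

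Each complex took part in this difference. It was called in 5 of 6 core and 15 of 29 accessory subunits of complex I, 3 of 4 subunits of complex II, 4 of 6 of complex III, 5 of 7 ubiquitous subunits of complex IV and 9 of 17 genes of complex V, but in 0 of 7 complex I assembly factors, whose median difference was 0.28. Atp5f1b read 0.09, -0.36 and 0.21 in control 1 to 3 and 0.43, 0.56 and 0.43 in control 4 to 6. The difference was 0.49 ± 0.12 (adjusted p = 0.0151), with no overlap between the groups.

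Uqcrc1, a core subunit of complex III, read -0.01, -0.20 and 0.18 in control 1 to 3 and 0.50, 0.35 and 0.53 in control 4 to 6. It was higher by 0.47 ± 0.10 (adjusted p = 0.0105). Atp5pf, which joins the stalk of ATP synthase, was higher by 0.49 ± 0.10 (adjusted p = 0.00935), and the complex I accessory subunits Ndufb9 and Ndufb7 by 0.50 ± 0.11 and 0.51 ± 0.15 (adjusted p = 0.0133 and 0.033). Cycs was higher by 0.48 ± 0.15 (adjusted p = 0.0462). These are rises of about 1.4-fold. The highest difference, 0.51, was that of Atp5mc2l2, a copy gene of complex V whose probe is uncertain.

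The other 40 genes were not called, among them 14 of 29 accessory subunits of complex I and 8 of 17 genes of complex V. Of the 6 tissue-restricted or related genes of complex IV, 1 was called. Cox6a2, the heart and muscle form of subunit 6A, differed by 0.10 ± 0.07, whereas the ubiquitous form Cox6a1 was higher by 0.38 ± 0.11 (adjusted p = 0.0296). Atp5if1, the inhibitor protein of ATP synthase, differed by 0.09 ± 0.06 and Ndufs4, a complex I accessory subunit, by -0.14 ± 0.10 (adjusted p = 0.463). Among the 11 pseudogene-like or copy genes 4 were called, with a median of 0.05, and among the other 72 genes 39 were called, with a median of 0.38. Whether probe brightness plays a part was not tested.

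**Figure D2:**
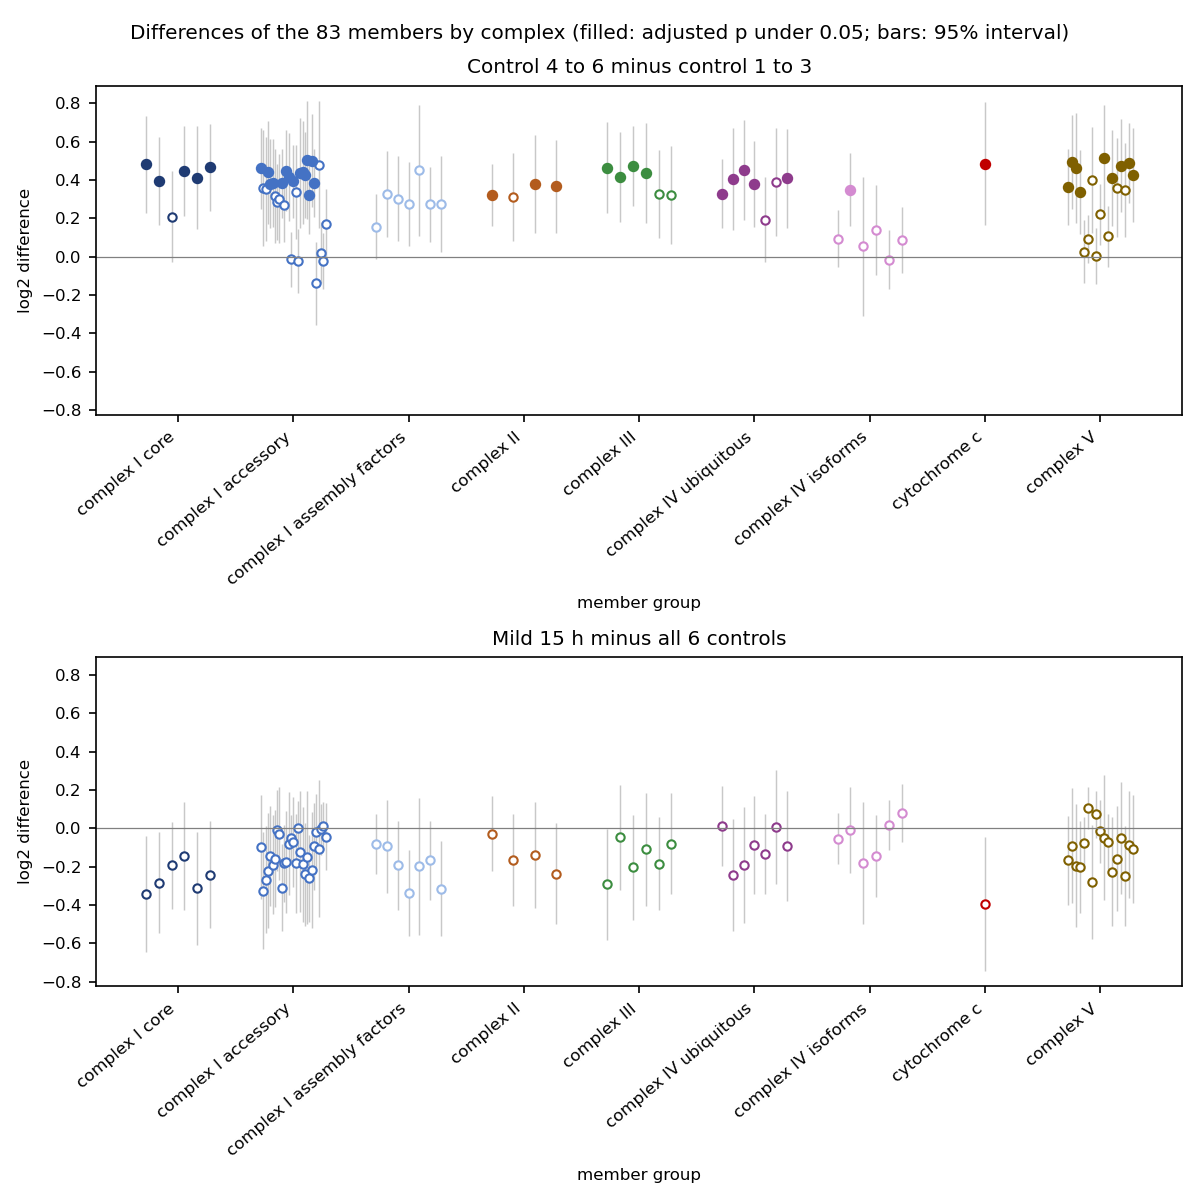
Log2 difference (vertical axis) of each of the 83 genes by complex (horizontal axis), for control 4 to 6 minus control 1 to 3 and for mild 15 h minus all 6 controls. Points are genes, bars are 95% intervals, and filled points passed an adjusted p of 0.05. The upper panel holds 43 filled points, all above 0, and the lower panel none.

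Some other gene groups shared this difference, where 11.5% of all features were higher. Of the proteasome genes 22 of 41 were higher (53.7%), and of the mitochondrial ribosome 29 of 63 (46%). The tricarboxylic acid cycle and pyruvate dehydrogenase had 11 of 18 (61.1%). The cytosolic ribosome, with 20 of 142 (14.1%), and glycolysis, with 3 of 22 (13.6%), lay near the share of all features. None of these genes was lower. Microglia markers moved as well, with 3 of 7 higher and a median difference of 0.85, as did fibroblast and meningeal markers, with 4 of 7 higher and a median of 0.53, and neuron markers, with 4 of 12 higher and a median of 0.23. The part of these cell types in the result was not tested.

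The call for the controls was not stable. No gene of the 83 passed with quantile normalization, with the array chip as a block, in a fit to all 34 arrays, or without control 2, and 7 to 61 passed when another control was left out. The shares of all features in these fits are not given, so the counts cannot be set against the background. Within the chip that held arrays of both control sets (1 array against 2), the median of the 83 genes differed by 0.38, with 77 genes above 0.

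The time courses gave no call among the 83 genes. Across 0, 8, 15 and 24 h after mild injury 0 genes of the 83 and 0% of all features passed limma's F test (9 and 2036 at an unadjusted p under 0.05). From 0 to 24 h the median difference was -0.11, with 68 genes lower on the mean. Across 8, 15, 24 and 48 h after severe injury 0 genes and 0% of all features passed (2 and 807 unadjusted), and from 8 to 48 h the median was -0.19 with 73 genes lower on the mean. That sign rested on severe 48 h replicate 2: without it the median was 0.03, and without replicate 3 it was -0.40. The change from 8 to 24 h is free of the divisors and was compared between severe and mild injury. It differed for 0 genes and 0% of all features (0 and 862 unadjusted).

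The severe arrays were compared with the arrays labelled mild 48 h, the only mild arrays with the same divisor. At 48 h this is severe against mild injury at 1 time, and at 8, 15 and 24 h both injury and time differ. The respiratory chain as a whole lay close to the reference. The medians of the 83 genes were -0.11, 0.06 and 0.04 in the mild 48 h arrays, 0.06, 0.05 and 0.27 at severe 8 h, -0.01, -0.01 and 0.23 at 15 h, 0.17, -0.00 and 0.04 at 24 h, and 0.01, -0.57 and 0.26 at 48 h. The single severe 0 h array read 0.05. Severe 48 h replicate 2 stood apart from all others, with 76 of 83 genes below 0. On that array the medians of the proteasome and the mitochondrial ribosome were also low, at -0.61 and -0.69, and that of the 12 neuron markers was -2.04, the lowest of the 13 severe arrays. The part of neuron content in this array's position was not tested.

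The count of called genes was below the background at every time. At severe 8, 15, 24 and 48 h, 1, 2, 2 and 3 of the 83 genes passed, all of them lower, where 8.6%, 10.8%, 9.2% and 11.2% of all features were called (3.47%, 4.44%, 2.85% and 3.45% higher, and 5.14%, 6.39%, 6.35% and 7.77% lower). The median difference of the 83 genes was 0.10, 0.08, 0.07 and -0.05, against 0.01, 0.00, 0.02 and 0.00 over all features. The 95% intervals of 79, 77, 78 and 76 of the 83 genes lay within 1 log2 unit of 0, and those of 45, 43, 49 and 46 within 0.58. Every severe array lay above every mild 48 h array for 18, 17, 13 and 0 of the 83 genes. This held for 15.2%, 16.2%, 15.6% and 10.4% of all features. Every severe array lay below for 6, 8, 7 and 5 genes, and for 13.5%, 16.2%, 15.7% and 14.8% of all features.

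Arrays were hybridised on 4 chips. Within a chip, with 1 array against 1, the median difference of the 83 genes was 0.01 at 8 h, 0.08 at 15 h and 0.13 at 24 h, and at 48 h no chip held both groups. At 48 h the outcome turned on single arrays. Without severe 48 h replicate 2, 8 genes passed, 6 higher and 2 lower, with a median of 0.11 (12.9% of all features). Without replicate 3, 13 passed, all lower, with a median of -0.25 (14.9% of all features).

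The core of the chain illustrates this. Ndufs1 read 0.33, -0.49 and 0.90 in the 3 severe 48 h arrays against -0.09, 0.09 and -0.01 in mild 48 h, a difference of 0.25 ± 0.28 (limma adjusted p = 0.693). Cycs read -0.42, -1.21 and 0.17 against -0.04, -0.03 and 0.07, a difference of -0.49 ± 0.28 (adjusted p = 0.35). The severe arrays lay on both sides of the mild ones for both genes. Atp5f1a (0.00 ± 0.19), Cox5a (-0.20 ± 0.18), Sdhb (-0.21 ± 0.16) and the Rieske iron-sulphur subunit of complex III, Uqcrfs1 (-0.20 ± 0.24), likewise did not pass.

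By complex, the median difference at 48 h was 0.24 for complex II, -0.00 for the complex I core, -0.05 for its accessory subunits, -0.01 for complex V, -0.18 for the ubiquitous complex IV subunits and -0.20 for complex III. Sdha and Sdhc, of complex II, differed by 0.35 ± 0.24 and 0.47 ± 0.21 at 48 h (adjusted p = 0.479 and 0.202). Their complex neighbour Sdhb was on the other side of 0, and none of the 3 passed.

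**Figure D3:**
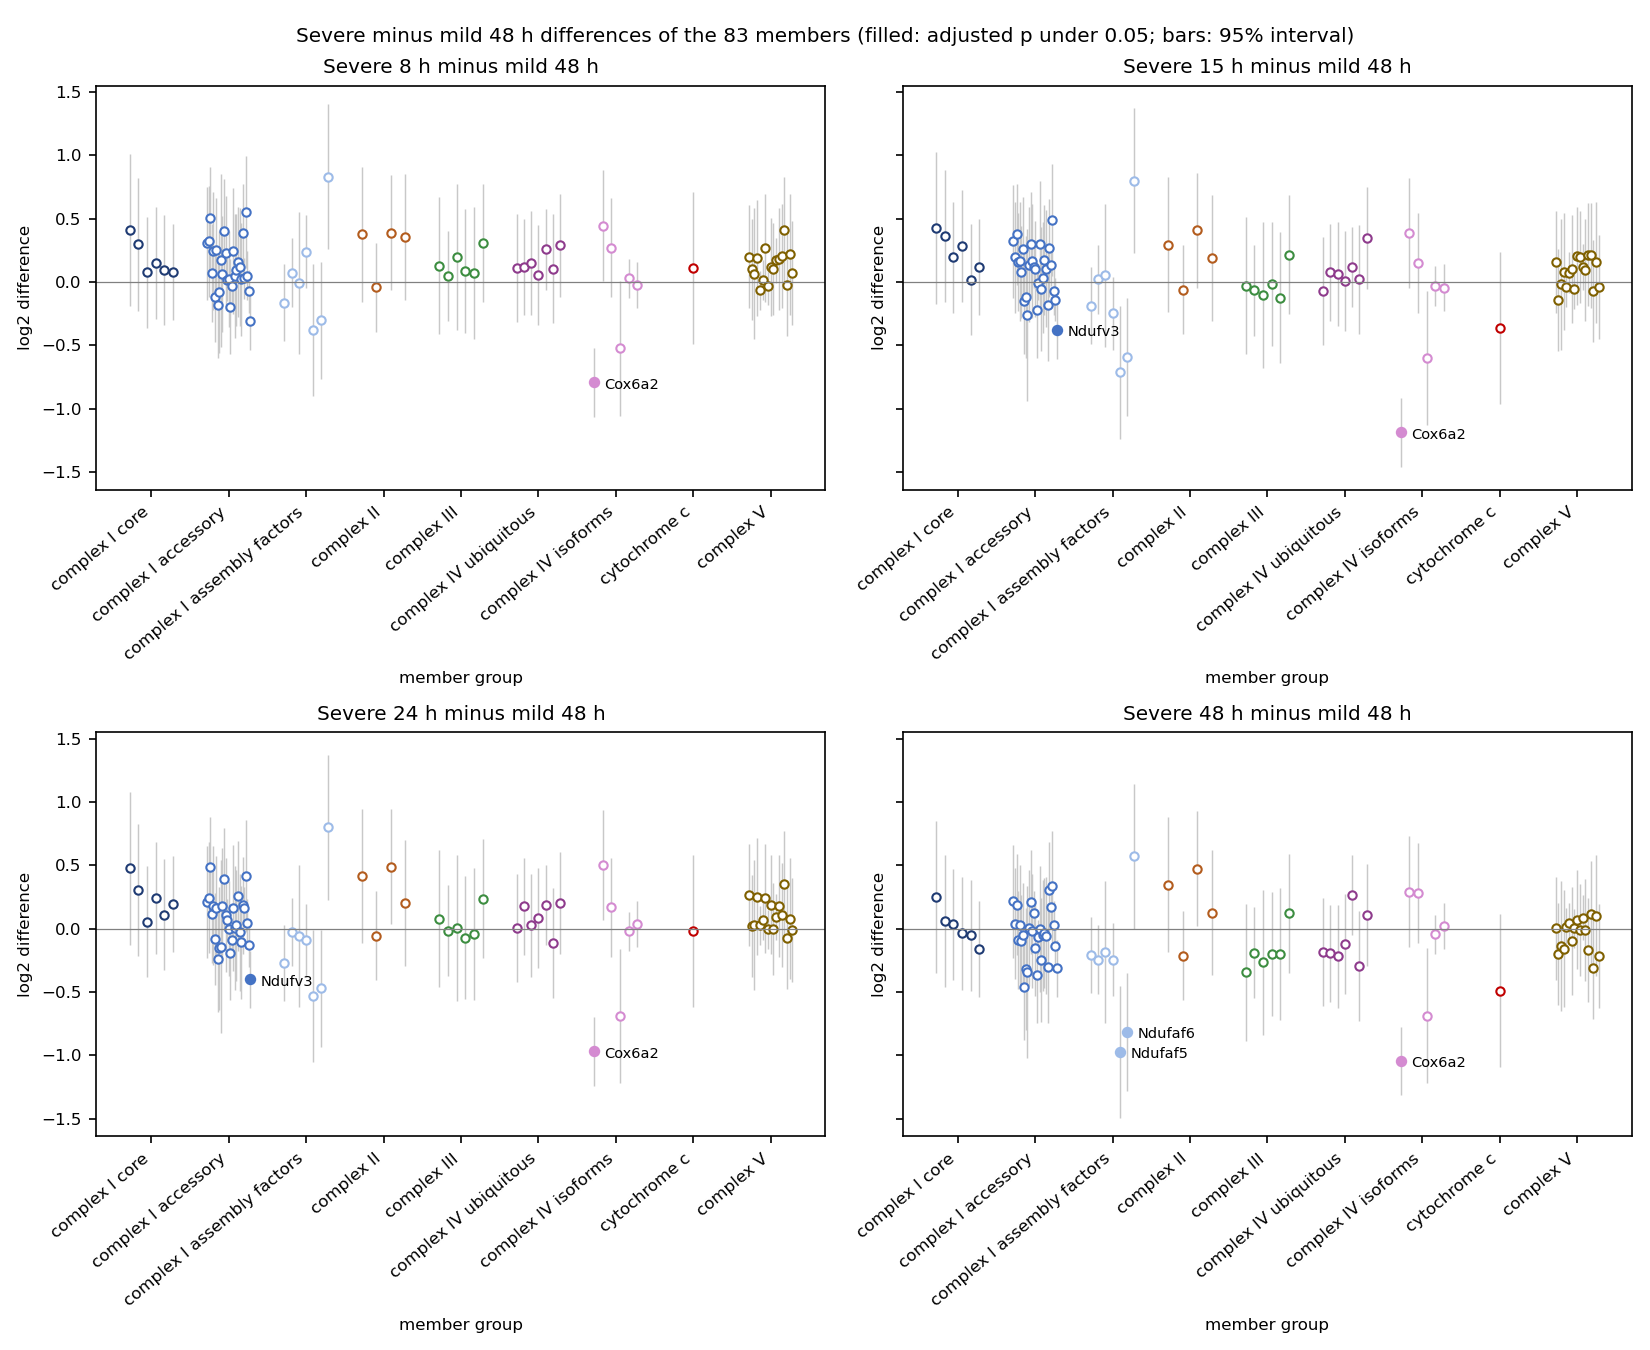
Log2 difference from mild 48 h (vertical axis) of each of the 83 genes by complex (horizontal axis) at 4 times after severe injury. Points are genes, bars are 95% intervals, and filled, named points passed an adjusted p of 0.05. Cox6a2 is filled in all 4 panels, Ndufv3 at 15 and 24 h, and Ndufaf5 and Ndufaf6 at 48 h.

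Cox6a2 departed from the rest at every time. This muscle form of complex IV subunit 6A is also known in mouse brain from fast-spiking interneurons. It read -0.18, 0.14 and 0.02 in mild 48 h, -0.85, -0.63 and -0.91 at severe 8 h, -1.22, -1.13 and -1.23 at 15 h, -1.04, -0.77 and -1.12 at 24 h, and -1.19, -1.15 and -0.81 at 48 h. Each severe array lay below each mild 48 h array, and so did the single severe 0 h array at -0.98.

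Cox6a2 was lower by 0.79 ± 0.12 at 8 h, 1.19 ± 0.12 at 15 h, 0.97 ± 0.12 at 24 h and 1.05 ± 0.12 at 48 h (limma adjusted p = 0.00149, 6.26e-05, 0.000307 and 0.00015), a fall of 1.73-fold to 2.28-fold. The call held with the chip as a block (adjusted p = 0.00382 to 0.0222), without severe 48 h replicate 2 and without any other single array. With quantile normalization it held at 15 h, and the differences of -0.77, -0.79 and -0.72 at 8, 24 and 48 h did not pass (adjusted p = 0.105, 0.0916 and 0.157). The chip block is a limited check. Severe and mild 48 h arrays shared no chip, so its 48 h value rests on chip differences taken from other groups. At 8, 15 and 24 h a shared chip held 1 array against 1.

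The ubiquitous form Cox6a1 did not follow. It read -0.11, 0.08 and 0.03 in mild 48 h and -0.08, -0.58 and 0.29 at severe 48 h. Its differences were 0.05 ± 0.18, 0.01 ± 0.18, 0.08 ± 0.18 and -0.12 ± 0.18 at the 4 times, with a 95% interval at 48 h of -0.51 to 0.28.

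Within an array, Cox6a2 minus Cox6a1 was -1.01 ± 0.27 (SD, n = 12) at severe 8 to 48 h and -0.00 ± 0.07 (SD, n = 3) at mild 48 h, with all 12 severe arrays below all 3 mild ones. The pair was chosen after its values were seen, so this is a description with no test. Among controls and mild injury up to 24 h Cox6a2 stayed between -0.11 and 0.23.

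**Figure D4:**
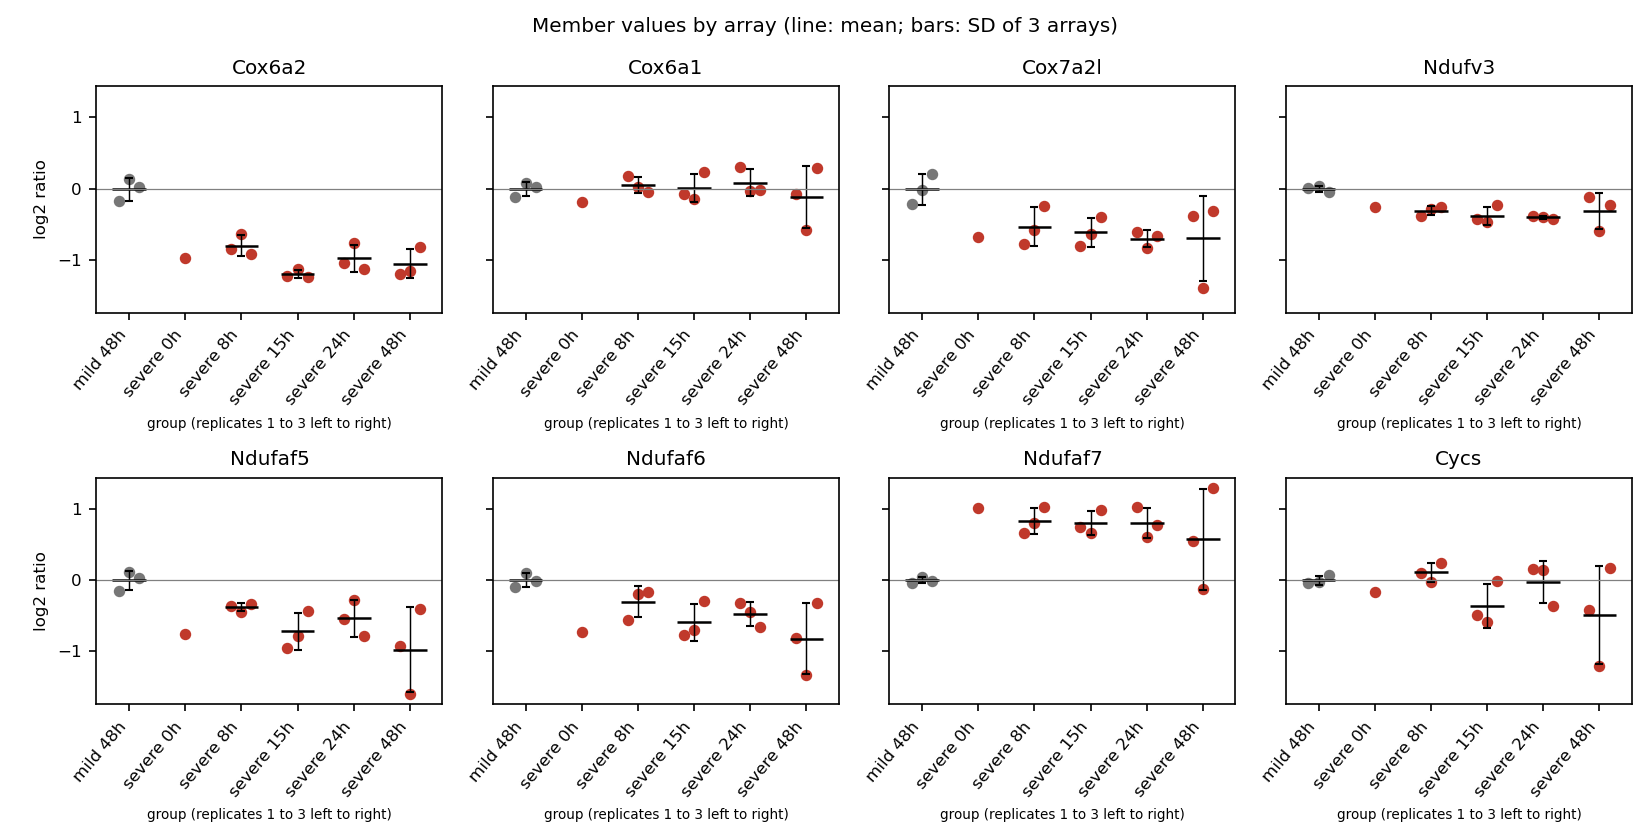
Log2 ratio (vertical axis) of 8 named genes on each array of the mild 48 h and severe groups (horizontal axis). Grey points are mild 48 h arrays and red points severe arrays, with the mean as a line and the SD of 3 arrays as a bar. Cox6a2 is at -0.63 or lower on every severe array, while Cox6a1 lies on both sides of 0.

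Markers of other cells moved in the same comparison. All 7 fibroblast and meningeal markers were lower at 48 h (median -3.49) and all 5 ependymal markers higher (median 3.33), while 5 of 7 astrocyte and 4 of 10 oligodendrocyte lineage markers were higher. Of 5 skeletal muscle markers 2 were called lower at 48 h, Tnnt3 by 0.22 ± 0.05 and Myh3 by 0.33 ± 0.09 (limma adjusted p = 0.0175 and 0.0352). The 5 did not move together: 3 lay below 0 and 2 above, from -1.32, which was not called, to 0.16. The median of the 12 neuron markers ranged from -2.04 to 0.34 over the 13 severe arrays. Its median difference from mild 48 h was 0.15 at 8 h, -1.15 at 15 h, -0.12 at 24 h and -1.17 at 48 h, with 0, 1, 0 and 2 of the 12 called, all lower. Cox6a2 was low both on arrays where that median was above 0 (severe 15 h replicate 3, 0.13) and where it was far below it (severe 15 h replicate 1, -1.51). The part of these cells in the fall of Cox6a2 was not tested.

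Promoter sequences are shown for Cox6a2, the gene lower at all 4 times, for Ndufaf5 and Ndufv3, which are described next, and for Sdha, whose window held the most matches to the NRF1 motif. NRF1 is a factor known to bind promoters of many respiratory chain genes. RefSeq windows on GRCr8, from 250 bases before to 50 after the gene start, were found for 68 of the 83 genes. The 250 bases before the start are printed on the gene's strand. Capitals mark matches, on either strand, to the NRF1 motif (GCGCA, any base, then GCGC), the MEF2 motif (CTA, AAAA and TAG run together) or the E-box CAGCTG. The MEF2 motif and the E-box are known from muscle promoters. No marked matches overlapped.
Cox6a2, chr1:192219717-192219966, minus strand: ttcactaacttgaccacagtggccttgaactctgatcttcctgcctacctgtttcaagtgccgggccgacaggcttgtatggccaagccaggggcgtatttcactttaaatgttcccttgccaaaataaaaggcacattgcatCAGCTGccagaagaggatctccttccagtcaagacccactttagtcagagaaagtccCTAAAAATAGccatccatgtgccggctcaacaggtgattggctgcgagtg
Ndufaf5, chr3:147961362-147961611, plus strand: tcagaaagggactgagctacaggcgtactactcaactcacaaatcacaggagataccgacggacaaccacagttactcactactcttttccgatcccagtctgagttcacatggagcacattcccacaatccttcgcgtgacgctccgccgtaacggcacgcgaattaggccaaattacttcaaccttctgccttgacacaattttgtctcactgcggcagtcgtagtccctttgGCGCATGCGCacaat
Ndufv3, chr20:9613536-9613785, plus strand: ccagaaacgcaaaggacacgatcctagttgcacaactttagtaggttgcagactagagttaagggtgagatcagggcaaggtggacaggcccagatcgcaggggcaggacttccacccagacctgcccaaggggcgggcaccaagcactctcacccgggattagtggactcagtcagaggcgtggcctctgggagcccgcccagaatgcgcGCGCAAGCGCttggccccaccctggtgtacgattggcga
Sdha, chr1:30764303-30764552, plus strand: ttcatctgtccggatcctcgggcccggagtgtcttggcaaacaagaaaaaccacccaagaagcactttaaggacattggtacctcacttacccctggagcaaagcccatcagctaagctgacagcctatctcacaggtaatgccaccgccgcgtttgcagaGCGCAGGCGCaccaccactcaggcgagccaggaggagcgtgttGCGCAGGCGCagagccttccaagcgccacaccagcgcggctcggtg

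Over the whole 300-base windows, the NRF1 letters stood in 15 of the 68 genes (22.1%) and in 4.71% of 27457 promoters. The ETS letters CCGGAAG stood in 19 of 68 (27.9%) and in 9.22% of promoters. The CCAAT box was about as frequent in the 68 genes (38.2%) as in all promoters (37.7%). The MEF2 letters stood in 1 of the 68, Cox6a2, and in 0.135% of promoters. For MEF2 only this 1 exact string was searched, with no base left free as in the NRF1 motif. Other forms of the MEF2 motif were not counted. The E-box stood in 10 of 68 (14.7%) and in 15.1%. The TATA box letters TATAAA stood in 6 of 68 (8.82%) and in 14.3%. The motifs were chosen with the values of these genes known. A match is a string of letters and not a shown binding site, and none of the 15 genes with an NRF1 match was a complex IV gene or a complex I core gene.

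Complex I genes outside the core made up the other calls. Ndufv3, an accessory subunit of the NADH-oxidising arm, read 0.01, 0.04 and -0.05 in mild 48 h, -0.38, -0.28 and -0.26 at severe 8 h, -0.43, -0.47 and -0.23 at 15 h, -0.38, -0.40 and -0.43 at 24 h, and -0.12, -0.60 and -0.24 at 48 h. All 12 severe arrays lay below all mild ones. It was lower by 0.38 ± 0.10 at 15 h and by 0.40 ± 0.10 at 24 h (limma adjusted p = 0.0351 and 0.0303). The differences of -0.31 ± 0.10 at 8 h and -0.32 ± 0.10 at 48 h did not pass (adjusted p = 0.106 and 0.0787).

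The assembly factors Ndufaf5 and Ndufaf6 were called at 48 h only. In humans, both are required for building complex I, and Ndufaf5 modifies a core subunit. Ndufaf5 read -0.36, -0.44 and -0.34 at severe 8 h, -0.95, -0.78 and -0.43 at 15 h, -0.55, -0.28 and -0.78 at 24 h, and -0.93, -1.60 and -0.41 at 48 h, against -0.15, 0.11 and 0.02 in mild 48 h. It was lower by 0.97 ± 0.24 at 48 h (adjusted p = 0.0185). Ndufaf6 read -0.81, -1.32 and -0.32 at severe 48 h against -0.10, 0.10 and -0.00, and was lower by 0.82 ± 0.21 (adjusted p = 0.0263). No severe array overlapped the mild ones for either gene.

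The calls of these 3 genes all held with quantile normalization (limma adjusted p = 0.0182 to 0.0493), where that of Cox6a2 was lost at 8, 24 and 48 h. Ndufv3 then also passed at 8 h (adjusted p = 0.0259). With the chip as a block or single arrays left out, these calls held less well than that of Cox6a2. None of them passed with the chip as a block (adjusted p = 0.13 to 0.16 for the calls above). Without severe 48 h replicate 2, the 48 h difference was -0.66 for Ndufaf5 (adjusted p = 0.0342) and -0.56 for Ndufaf6 (adjusted p = 0.0669). The 24 h call of Ndufv3 was lost with any 1 of its 6 arrays left out (adjusted p = 0.0674 to 0.106). Its 15 h call held only without severe 15 h replicate 3 and was otherwise lost (0.0763 to 0.137). The Ndufaf6 call was lost without any array but severe 48 h replicate 3 (0.0577 to 0.0983), and the Ndufaf5 call without mild 48 h replicate 2 or 3 (0.0644 and 0.076).

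To use all 12 severe arrays at once, the 4 times were averaged and set against mild 48 h, a comparison added after the data had been seen. Of the 83 genes 6 passed, 1 higher and 5 lower, where 14.5% of all features were called (5.75% higher and 8.73% lower). Cox6a2 differed by -0.998 ± 0.099 (limma adjusted p = 2.06e-05), Ndufaf5 by -0.65 ± 0.19, Ndufv3 by -0.35 ± 0.08 and Ndufaf6 by -0.55 ± 0.17 (adjusted p = 0.0497, at the threshold).

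The 2 further genes were Cox7a2l and Ndufaf7. Cox7a2l, which in mouse helps to join complexes III and IV into supercomplexes, read -0.22, -0.01 and 0.20 in mild 48 h and -1.39 to -0.24 over the 12 severe arrays. It was lower by 0.63 ± 0.19 (adjusted p = 0.0486). Ndufaf7, which in humans methylates a complex I subunit, read -0.03, 0.05 and -0.02 in mild 48 h and -0.13 to 1.30 in the severe arrays, and was higher by 0.75 ± 0.21 (adjusted p = 0.0284). The severe array at -0.13 was 48 h replicate 2.

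The single severe 0 h array, which entered no test, read -0.26 for Ndufv3, -0.75 for Ndufaf5, -0.72 for Ndufaf6, -0.68 for Cox7a2l and 1.01 for Ndufaf7. It thus lay on the same side of mild 48 h as the 12 later arrays for each of these genes, except that 48 h replicate 2 was on the other side for Ndufaf7. Removing a single array left 1 to 16 of the 83 genes in the averaged comparison, with 1 without mild 48 h replicate 1 or 2 and 16 (11 higher, 5 lower) without severe 48 h replicate 2. The shares of all features in these fits are not given, so these counts cannot be set against the background. With the chip as a block Cox6a2 alone passed.

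Glycolysis and the cytosolic ribosome held more called genes. At severe 48 h, 69 of 142 cytosolic ribosome genes and 9 of 22 glycolysis genes were lower, and 3 glycolysis genes higher. Among glycolysis genes the lowest adjusted p was that of Slc16a3, a lactate transporter, at -3.31 ± 0.16 (limma adjusted p = 6.55e-08). Next came Pkm, pyruvate kinase, at -2.10 ± 0.24 (adjusted p = 0.000106). In the cytosolic ribosome list these were Rpl12a-ps1 at -1.49 ± 0.12 and Rps7-ps22 at -0.92 ± 0.08 (adjusted p = 6.2e-06 and 1.25e-05). Both symbols mark pseudogenes, whose probes may share sequence with the parent gene, so the counts of this list are uncertain. On 13 of 13 severe arrays the median of the 83 genes lay above that of glycolysis, by 0.18 to 0.42. On 12 of 13 it lay above that of the cytosolic ribosome, the exception being severe 48 h replicate 2.

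The other mitochondrial lists did not all stay near the 83 genes. At severe 48 h the median difference was -0.05 for the 83 genes and 0.01 for the tricarboxylic acid cycle list. It was -0.19 for both the mitochondrial ribosome and the carrier, import and dynamics list. For assembly and heme genes outside the rule it was -0.08, and for biogenesis regulators -0.04. Of the regulators 11.8% were called, where 11.2% of all features and 3.61% of the 83 genes were. At severe 48 h 0 of 18 genes of the tricarboxylic acid cycle and pyruvate dehydrogenase passed, 1 of 63 of the mitochondrial ribosome (Mrps10, lower by 0.69 ± 0.13) and 1 of 31 respiratory chain assembly and heme genes outside the rule (Higd1a, lower by 0.68 ± 0.14). Among 17 regulators of mitochondrial biogenesis, Prkaa1, a catalytic subunit of AMP-activated kinase, was lower by 0.40 ± 0.07 and Ppargc1b, a transcriptional coactivator, higher by 0.22 ± 0.06 (limma adjusted p = 0.00295 and 0.031). Of 21 carriers and import or dynamics genes Ucp2, an uncoupling protein, was higher by 1.23 ± 0.30 (adjusted p = 0.0186).

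**Figure D5:**
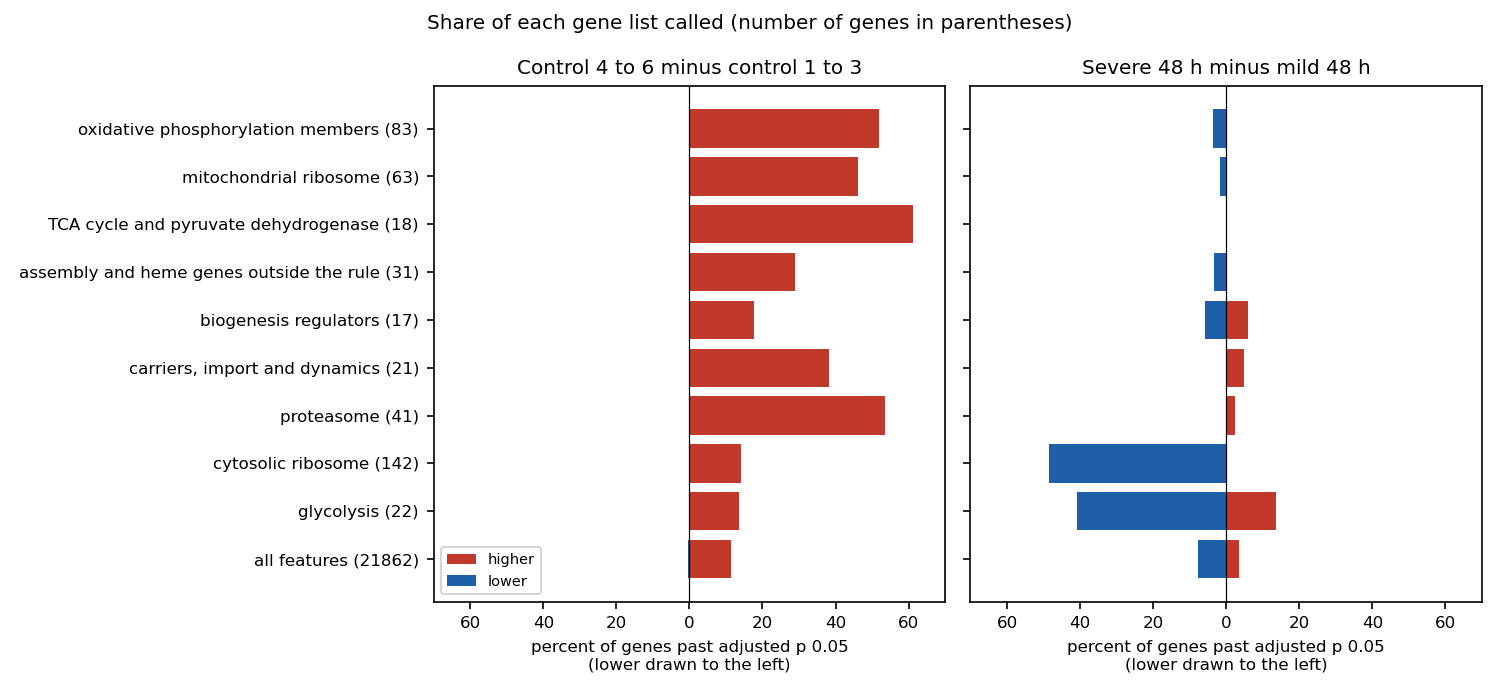
Percent of each gene list past an adjusted p of 0.05 (horizontal axis, lower drawn to the left and higher to the right) for control 4 to 6 minus control 1 to 3 and for severe 48 h minus mild 48 h, with list sizes in parentheses. The 83 genes reach 51.8% higher in the first and 3.61% lower in the second.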

How the data were processed

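The authors deposited a linear ratio per probe and array, in a table without stated background correction, software or filters. Each ratio was taken as an array's signal over its median, divided by the mean of 3 arrays. The divisor was checked on the values (of 5984 possible triples, 2 had a mean of 1 at every probe, within 1e-04). That check does not bear on the scaling to the array median. A second deposited table holds 34 signal columns that match no sample's labels. Its probe descriptions helped to name genes. Its signals were correlated with the ratios to find which arrays share a divisor and in which order it places the arrays. No tested value came from these signals. The smallest ratio, 0.01, occurs 3 times and may be a floor.

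The deposited ratios were log2-transformed, and probes of a gene averaged. Group means were compared by limma 3.58.1 (R 4.3.3) within the 18 or the 16 arrays of a shared divisor, with 1 mean per group, Benjamini-Hochberg adjustment over 21862 features and a threshold of 0.05. The code was tested on simulated data. The members, lists and tests were chosen with earlier results of these data known. Genes named are a fixed list of catalytic and isoform subunits, up to 5 called rises and falls or the 3 lowest adjusted p per comparison, and 2 per other list with the lowest adjusted p; Cox6a2 against Cox6a1, the genes that stayed behind between the controls and the genes shown as promoters were added after their values were seen. Barcodes placed the arrays on 4 chips. Alternatives were the centring, quantile normalization, single probes, array weights, chip and replicate blocks, other sets of arrays, other controls and leaving out each array. Figures used matplotlib 3.10.9, pandas 2.3.3 and Python 3.11.15.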

Additional observations from a re-analysis of the deposited data

How the results depend on the processing

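No call of a single gene changed direction under any alternative, but the small median differences of the 83 genes did. The mild 0 h median went from 0.13 to -0.05 against control 4 to 6. The mild 8 h median went from -0.05 to 0.12 against control 1 to 3 and to 0.04 with the chip block, and the mild 15 h median from -0.15 to 0.01 against control 1 to 3. The replicate block gave the same 0.12 and 0.01 at these times. The mild 24 h median of 0.01 went below 0 in 7 alternatives, down to -0.16 against control 4 to 6. The severe 48 h median went from -0.05 to 0.02 with quantile normalization or array weights and to 0.11 without severe 48 h replicate 2, where the calls went from 3 lower to 6 higher and 2 lower. The median from severe 8 to 48 h went from -0.19 to 0.03 without that array. Without severe 15 h replicate 3 the 15 h median went from 0.08 to -0.00, and without mild 48 h replicate 1 the averaged one from 0.04 to -0.00. Counts below are of the 83 genes past an adjusted p of 0.05. The mild comparisons stayed at 0 except as follows: 12 at 0 h against control 1 to 3, 35 at 15 h against control 4 to 6, and 0 to 2 at 15 h when an array was left out. Control 4 to 6 minus control 1 to 3 fell from 43 to 0 with quantile normalization, with the chip block and with all 34 arrays fitted, and gave 0 to 61 with 1 control left out (0 without control 2, 61 without control 3). Severe 8, 15, 24 and 48 h gave 7, 11, 11 and 14 with array weights (of all features 14.7%, 23.5%, 17.9% and 26.9%) and 3, 6, 5 and 6 with all 34 arrays fitted (13.3%, 16.6%, 14.3% and 17.1%). With only the compared arrays fitted they gave 9, 12, 10 and 1. With the chip block 15, 24 and 48 h gave 1 each, and with quantile normalization 8 and 15 h gave 2 and 4. Leaving out an array gave 1 at 8 h, 1 to 2 at 15 h, 1 at 24 h and 1 to 13 at 48 h. The averaged severe comparison gave 19 with array weights, 1 with the chip block and 1 to 16 with an array left out. Where no share of all features is given with a count, here or above, the count cannot be set against the background. The cause of these shifts was not tested. Same-numbered arrays of 2 groups deviated together in some pairs and apart in others (correlations of -0.686 to 0.749 over 60 pairs), and of 20 pairs of groups 1, severe 15 and 48 h, had all 3 above 0.1 (0.227, 0.544 and 0.749). The severe time course, which holds both groups, gave 0 with the replicate block too. For the other pairs of groups the replicates share only a number. With the replicate block the counts were 0 for the mild comparisons and 1, 2, 2, 3 and 6 for the severe ones, as without it, though the averaged comparison split into 2 higher and 4 lower. Mild 48 h and severe 48 h have no chip in common. Depth does not apply to arrays, and signal over background is unknown.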
